A study of Mus musculus with 10 samples.

Results

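Distal regions called as peaks only in epicardium-derived cells (EPDCs) were examined in bulk ATAC-seq peak lists of 9 mouse libraries. In ATAC-seq the Tn5 transposase cuts accessible DNA, so that sequenced fragments pile up over open promoters and enhancers. The regions were chosen by the peak calls themselves: the intervals of all 9 lists on the 19 autosomes were merged into 154886 union regions, of which 126783 lay more than 1 kb from every annotated transcription start site. Of these distal regions, 4211 were called by all 3 EPDC lists and by none of the 6 epicardial lists, 3.32% of the distal regions. The number rests most on EPDC E12.5 sample 1, without which 9247 regions would be chosen. The 4211 regions make up 8.98% of the 46899 distal regions called by all 3 EPDC lists.

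Embryonic hearts were sorted, all from Rosa26tdTomato;Wt1CreERT2/+ embryos, in which tamoxifen given to the dams by gavage at E9.5 marks Wt1-expressing cells and their descendants with tdTomato. The epicardium (CD31-tdTomato+PDPN+) was sampled in 3 libraries of E11.5, each a pool of 6 hearts, and in 3 of E17.5, each a pool of 4. The EPDCs (CD31-tdTomato+PDPN-) gave 1 library at E12.5, for which no number of hearts is given in the sources used here, and 2 at E13.5, each from a pool of 4 to 13 hearts. E13.5 sample 2 combines a pair of technical runs. Each library started from 40000 to 50000 cells according to the sample records, while the methods of the study give other lower limits for these cells and for the E13.5 hearts. No epicardium of E12.5 or E13.5 was analysed here, so cell population and stage cannot be told apart in any comparison of EPDC with epicardial libraries. Wt1CreERT2 marks cells by their Wt1 expression at the time of tamoxifen, and a marked cell that lost podoplanin (PDPN) falls into the EPDC gate whatever its later fate.

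The epicardium is the mesothelial sheet around the heart. Some of its cells undergo epithelial-to-mesenchymal transition, enter the myocardium and give rise to cardiac fibroblasts, pericytes and smooth muscle cells. Distal elements such as enhancers differ more between cell types than promoters do, and they are read by transcription factors that recognise short DNA motifs. ETS factors are active in many mesenchymal and vascular cells, and EBF1 and EBF2 are known from pericytes and mesenchymal progenitors. TCF21 is a basic helix-loop-helix factor of the epicardium and of cardiac fibroblasts that binds E-boxes. TBX20 is a T-box factor of the heart and epicardium, and AP-1 is the FOS and JUN dimer.

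The labels were compared with promoter peaks, read within 500 bp of a start site. Of 17 epicardial marker genes, 9 had promoters ranked below every epicardial library in all 3 EPDC libraries and 0 ranked above, where 9.06% of all promoters tested were lower and 7.46% higher. Among endothelial markers 2 of 9 measured promoters ranked higher in EPDCs and 0 lower, and among cardiomyocyte markers 1 of 19 ranked higher and 4 lower. Of 22 fibroblast and mesenchyme markers, 3 ranked higher and 3 lower. The part of other cell types in the EPDC-only regions was not tested.

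Windows of 121 bp at the summits of 12 EPDC-only regions are shown first, to let the motifs described further on be seen in their surroundings. All lie in single-copy sequence outside exons and are named for the nearest protein-coding gene, on the plus strand of mm10. For each of 4 motifs with a raised share, the regions printed first are those with a match within 50 bp of the summit whose lowest EPDC percentile is highest, with the match in capitals. The windows for Ccn2 and Cdh11 were not chosen in that way, and are shown because both genes are described further on.

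The EBF matches, at chr16:94269802-94269922, chr6:100500885-100501005, chr10:8921247-8921367 and chr3:87974388-87974508, were the strongest of 42 such regions.
Hlcs: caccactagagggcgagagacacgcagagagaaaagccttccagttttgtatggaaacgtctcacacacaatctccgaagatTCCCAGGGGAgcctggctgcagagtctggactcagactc
Shq1: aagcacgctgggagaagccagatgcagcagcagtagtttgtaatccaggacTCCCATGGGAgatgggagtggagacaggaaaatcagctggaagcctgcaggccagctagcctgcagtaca
Sash1: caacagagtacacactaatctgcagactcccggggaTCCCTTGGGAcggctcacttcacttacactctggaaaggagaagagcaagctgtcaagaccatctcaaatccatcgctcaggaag
Nes: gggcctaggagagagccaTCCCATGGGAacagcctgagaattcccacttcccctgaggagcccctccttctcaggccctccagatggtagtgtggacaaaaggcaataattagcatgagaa

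The ETS matches (CAGGAAG on either strand) come from chr7:76584988-76585108 and chr4:59256958-59257078, and, for Ccn2, from chr10:24569802-24569922.
Agbl1: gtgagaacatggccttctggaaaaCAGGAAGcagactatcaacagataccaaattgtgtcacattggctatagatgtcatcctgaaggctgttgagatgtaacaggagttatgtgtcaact
Ugcg: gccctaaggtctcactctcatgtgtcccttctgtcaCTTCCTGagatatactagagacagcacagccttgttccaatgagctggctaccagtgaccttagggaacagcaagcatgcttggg
Ccn2: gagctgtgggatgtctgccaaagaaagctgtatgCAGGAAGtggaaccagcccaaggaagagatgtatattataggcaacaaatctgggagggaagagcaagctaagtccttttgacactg

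The TCF21 E-box (CAGCTG) windows are chr16:4586742-4586862, chr11:74547211-74547331 and, for Cdh11, chr8:102845555-102845675.
Glis2: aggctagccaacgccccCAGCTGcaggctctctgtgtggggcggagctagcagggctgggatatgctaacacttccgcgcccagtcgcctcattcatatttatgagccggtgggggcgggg
Rap1gap2: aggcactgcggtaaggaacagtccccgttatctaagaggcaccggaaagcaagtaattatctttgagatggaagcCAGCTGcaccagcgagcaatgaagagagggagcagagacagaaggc
Cdh11: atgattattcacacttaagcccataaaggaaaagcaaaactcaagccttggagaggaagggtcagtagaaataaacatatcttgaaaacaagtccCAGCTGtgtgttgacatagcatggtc

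The SOX matches (CATTGTT) lie in chr9:118630054-118630174 and chr6:31596908-31597028.
Itga9: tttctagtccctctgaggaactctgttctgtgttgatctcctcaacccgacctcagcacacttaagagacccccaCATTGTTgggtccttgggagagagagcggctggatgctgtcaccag
Podxl: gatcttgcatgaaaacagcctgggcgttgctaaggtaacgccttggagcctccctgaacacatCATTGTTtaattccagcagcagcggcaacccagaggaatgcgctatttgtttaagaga

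Within each library, a region was given the rank percentile of its strongest peak by −log10 p, which ranks peaks from the weakest to the strongest of that list. The EPDC-only regions were mostly weak or middling peaks of their libraries. Their median percentile stood at 25.6 for E12.5 sample 1, at 39.4 for E13.5 sample 1 and at 49.0 for E13.5 sample 2, where distal regions called in all 9 libraries had medians of 59.6, 61.6 and 68.8. Their median fold enrichment over local background was 4.63, 5.90 and 5.80 in the same order. All 3 percentiles were above 50 in 668 regions, above 75 in 184 and above 90 in 77, and no percentile was above 50 in 2091. These values chose the regions, in part, and are given as a description.

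The 3 EPDC libraries did not rank the regions alike. In 2464 of the 4211 regions (58.5%) the percentile rose from E12.5 sample 1 through E13.5 sample 1 to E13.5 sample 2, and the same order held in 46.5% of the regions called in all 9 libraries. E12.5 sample 1 gave the lowest of the 3 percentiles in 3052 regions and the highest in 391. Sample depth moves in that order too, since the genome background, solved from fold enrichment and −log10 p, was 4.19, 4.26 and 10.9 fragments per position. The part of stage and depth in this order was not tested.

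Regions just outside the choice were of like strength where an epicardial call kept them out, and weaker where an EPDC call was missing. Another 1456 distal regions were called by all 3 EPDC lists and by exactly 1 epicardial list, with median EPDC percentiles of 25.6, 38.9 and 48.9. The single epicardial call came from an E11.5 library in 187, 448 and 377 of them and from an E17.5 library in 137, 197 and 110. A further 5689 were called by exactly 2 EPDC lists and no epicardial list, and 5030 of these were missed only by E12.5 sample 1. Their median percentiles, over the regions each library called, were 11.6, 16.6 and 27.6, below those of the EPDC-only regions in each library. At the distance limit, the nearest region inside lay in an intron of Tcp11l1, with percentiles of 74.8, 80.4 and 85.2. The nearest region outside lay 999 bp from a start site, in an intron of Myo10, with 68.8, 72.8 and 71.4.

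An uncalled region may be open at a lower fold enrichment that the peak caller does not list, which these files cannot show. Where exactly 1 epicardial list called a region beside all 3 EPDC lists, its median percentile there was 8.55 and 11.6 in E11.5 replicates 1 and 2 and 7.95 and 6.94 in E17.5 replicates 2 and 3, with like values in the other two. Depth was described by carrying over the fold enrichment in EPDCs. Since the regions were chosen as called in EPDCs, high shares follow in part from the choice, and nothing is read from them about openness in the epicardium. At that fold enrichment and at the background of each epicardial library, the peak of a region would have passed the weakest −log10 p listed in that library for 93.4% to 98.0% of the 4211 regions. In all 6 epicardial libraries at once, 3932 regions (93.4%) would have passed, a figure set by E17.5 replicate 1, which has the lowest background (2.07 fragments).

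The strongest of these regions lay largely in sequence that occurs more than once in the genome. Each window, reaching 250 bp to either side of a summit, was sampled for 32-mers, and a window was called repeated where fewer than 90% of them were unique on the chromosome sequences of mm10. Of the EPDC-only regions, 602 (14.3%, 95% Wilson interval 13.3 to 15.4) were repeated, against 7.46% (7.32 to 7.61) of all other distal regions and 6.48% (5.66 to 7.41) of the 3040 regions called by all 6 epicardial lists and no EPDC list. Under 10% unique 32-mers were found in 209 regions (4.96%) against 0.563% of other distal regions. These intervals cover counting error over regions only, which are not replicates.

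**Figure D1:**
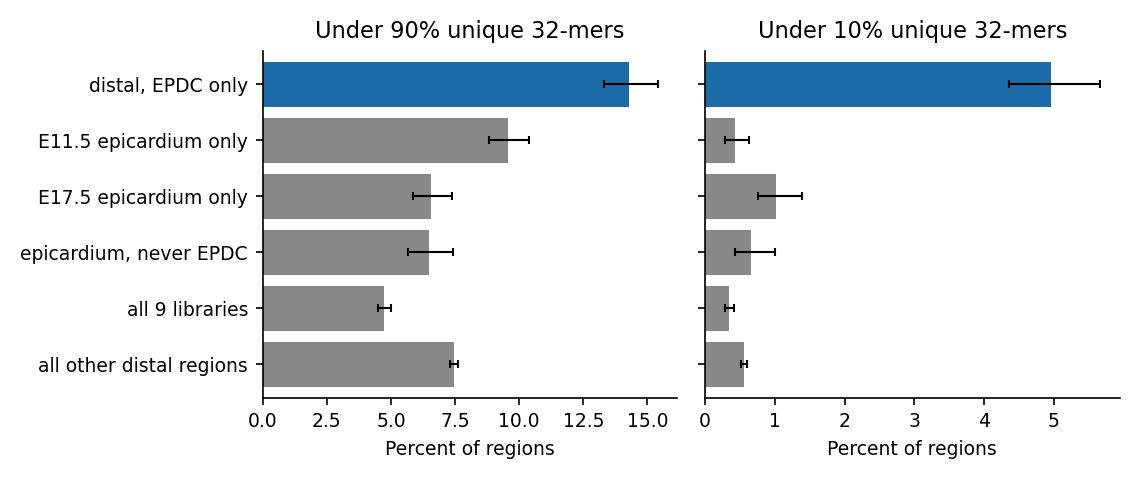
Share of distal regions whose summit window holds under 90% (left) or under 10% (right) unique 32-mers, in percent, for regions only in EPDC and for 5 other groups of distal regions; bars are shares and error bars 95% Wilson intervals. The EPDC-only bar is at 14.3% on the left and 4.96% on the right, above all 5 others.

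All 12 regions with the highest lowest-of-3 percentile were repeated in this sense, with 0 to 89.4% unique 32-mers. The first, at chr12:97061434-97061786 and 1155 kb from Galc, matched the mitochondrial genome over 365 bases at 99.7% identity and had −log10 p values of 42714, 14549 and 8195. The twelfth, in chr10:96077617-96077881, matched it over 373 bases at 97.6% identity. Mitochondrial matches of this kind were found in 3 EPDC-only regions and in 1 of the other distal regions. The others included an intron of Chl1, a neural adhesion molecule, with a fold enrichment of 48.5, 45.6 and 41.6, an exon and UTR of Lars2, a mitochondrial leucyl-tRNA synthetase, and a region near Fgf14 whose 32-mers had a median of 1795 copies. A peak above 891, the highest −log10 p in any epicardial list, occurred in 41 EPDC-only regions, 16 of them in all 3 libraries, and in 60 other distal regions, 58 of which were called in all 9 libraries.

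The longest run of neighbouring EPDC-only regions was a tandem array on chromosome 6. Between Hrh1, a histamine receptor gene, and Atg7, which acts in autophagy, 54 EPDC-only regions spanned chr6:114494578-114637089 with a median spacing of 2449 bp, and no epicardial list called any region there. None of the 54 was single-copy and their 32-mers had a median of 50 copies. The stretch at the summit of one of them is shown, at chr6:114548059-114548179, in which the 32 bases in capitals occurred 55 times in the run and 55 times on all chromosome sequences.
Array stretch: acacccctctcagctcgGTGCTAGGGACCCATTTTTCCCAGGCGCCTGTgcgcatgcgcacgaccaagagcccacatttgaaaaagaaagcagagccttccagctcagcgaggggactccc

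Further arrays lay near Ezh2, a histone methyltransferase gene, with 15 regions at chr6:47650817-47686473, and near Pdia4, with 9 at chr6:47739685-47778911, both with a median of 16.0 copies. Runs of 5 or more also occurred in single-copy sequence. Near Trak1, which links mitochondria to motors, there were 9 regions, near the stress gene Gadd45b 7, at chr10:59899319-59921520 6 and near the phosphatase gene Ctdp1 5. In all 7 runs of 5 or more, the epicardial lists held 0 regions.

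Such blocks without any epicardial peak were looked for across the genome, after the runs had been seen. A bare stretch was defined as a gap between neighbouring epicardium-called regions that held at least 3 regions called by all EPDC lists, or a start-site region above percentile 75 in all 3. There were 242 bare stretches, with 564 EPDC-only regions (13.4%), 258 single-copy and 306 repeated. The mirror search, for stretches of epicardial regions without EPDC calls, needs calls in 6 lists instead of 3, which lowers its count. It gave 11 stretches and 26 regions, 0.855% of the regions called by all epicardial and no EPDC lists. Start-site regions above percentile 75 in all lists of one population and called by none of the other numbered 328 for EPDC and 1 for epicardium. That limit too had to hold in 3 EPDC lists but in 6 epicardial lists.

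Promoters showed the same imbalance. In 280 promoters the peak was above percentile 75 in all 3 EPDC libraries and listed at 0 in all 6 epicardial libraries, and the reverse, which needs 6 lists above that limit, was found for 0 promoters. Without the percentile limit, 386 promoters were called by all 3 EPDC lists and listed at 0 in all 6 epicardial lists, and 56 were called by all 6 epicardial lists and listed at 0 in EPDCs. Genes that most cells use were among them, named here after their values were seen. Actg1, cytoplasmic actin, had EPDC percentiles of 82.3, 83.4 and 82.7, and the nuclear exporter gene Xpo1 had 99.9, 99.3 and 99.7. The ribosomal protein gene Rps25 had 93.7, 94.7 and 97.1, and the stress-response factor gene Atf4 had 90.8, 90.8 and 91.2. All were listed at 0 in each of the 6 epicardial lists. The EPDC lists also held 3, 4 and 7 peaks on the mitochondrial chromosome and 58, 65 and 80 on unplaced scaffolds, where the epicardial lists held 0. What made the epicardial lists bare at these places was not tested. Whether the EPDC and the epicardial lists passed the same read and region filters was not tested either, so absence from an epicardial list cannot be told apart from removal by a filter, here or in the choice of the EPDC-only regions.

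The regions were therefore also read without these places. The 3351 regions (79.6%) in single-copy sequence and outside bare stretches are called isolated single-copy regions here. Their median percentiles were 23.4, 37.4 and 47.0, against 50.3, 53.6 and 61.3 in bare stretches, and 11 of them were above percentile 90 in all 3 EPDC libraries. Of the 77 regions above that limit, 66 were repeated or in bare stretches.

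**Figure D2:**
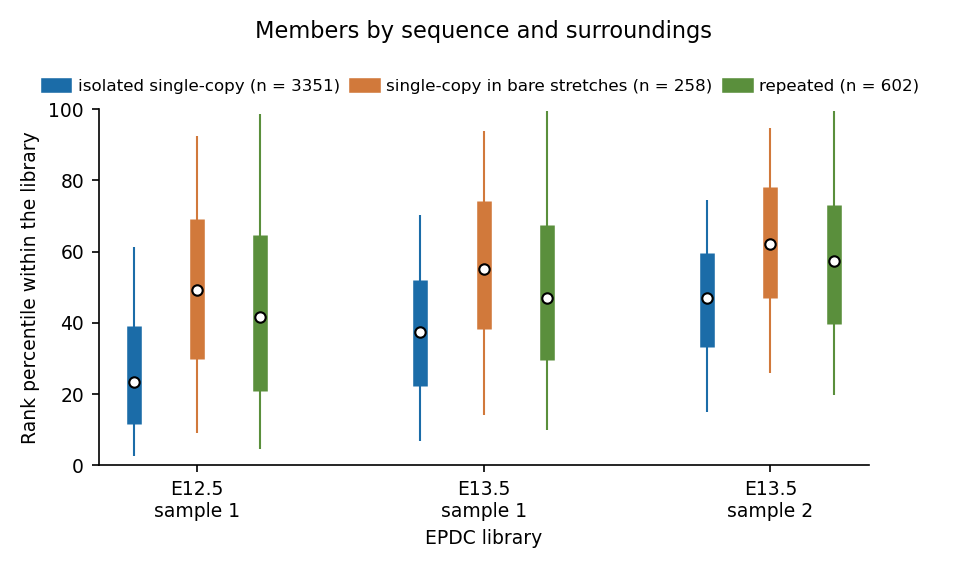
Rank percentile within each of the 3 EPDC libraries for isolated single-copy regions, single-copy regions in bare stretches and repeated regions; white points are medians, thick bars quartiles and thin lines the 5th to 95th percentiles. The isolated regions have the lowest median in each library, 23.4, 37.4 and 47.0.

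Among the 12 isolated single-copy regions with the highest lowest percentile, the region shown near Glis2, a zinc finger factor gene, had percentiles of 99.7, 99.5 and 99.8. Introns of Frmd4a (97.8, 97.4 and 98.2), of the sorting nexin gene Snx9 (96.8, 95.4 and 95.3), of the kinase gene Tnik (94.6, 94.3 and 93.5) and of Rap1gap2 (89.9, 91.6 and 91.9) followed. That each was high in all 3 EPDC libraries follows from how they were chosen.

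Motif matches were counted in the same windows with exact patterns on both strands, for 29 motifs, and compared with all other distal regions. Factors of the ETS and EBF families and the TCF21 E-box were matched more often in EPDC-only regions, and AP-1, the ZEB and SNAI E-box and CTCF less often. EBF was matched in 121 regions, 2.87% (2.41 to 3.42), against 1.66% (1.59 to 1.74) of other distal regions, a ratio of 1.73. ETS was matched in 1222 (29.0%, 27.7 to 30.4) against 23.2% (23.0 to 23.5), SOX in 8.79% against 6.99% and the TCF21 E-box in 39.3% (37.9 to 40.8) against 34.4% (34.2 to 34.7). The E-box was as frequent in regions called in all 9 libraries, at 39.2% (38.6 to 39.8), where EBF was matched in 1.84% and ETS in 24.9%. The GLI pattern (TGGGTGGTC) was the fourth by ratio, 0.522% against 0.439%, with overlapping intervals.

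Other motifs were matched less often. AP-1 (TGANTCA) was matched in 661 regions, 15.7% (14.6 to 16.8), against 26.0% (25.8 to 26.3) of other distal regions and 41.5% (39.7 to 43.2) of regions called by all epicardial and no EPDC lists. The ZEB and SNAI E-box (CAGGTG) was matched in 14.6% against 25.5%, and in 35.8% of the epicardial regions without EPDC calls. TBX20 (AGGTGTGA, which overlaps that E-box by up to 5 bases) was matched in 1.02% (0.759 to 1.37) against 2.14%, PBX and HOX (TGATTNAT) in 5.65% against 7.85%, and CTCF, the insulator factor, in 2.26% against 6.06%. The low CTCF share was not particular to EPDC-only regions, since it was 2.47% in regions called by all epicardial and no EPDC lists and 1.32% in those only in E17.5 epicardium, against 8.66% in regions called in all 9 libraries. In all, the intervals of 15 of the 29 motifs were apart. A match is a sequence of letters and does not show that a factor binds there.

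**Figure D3:**
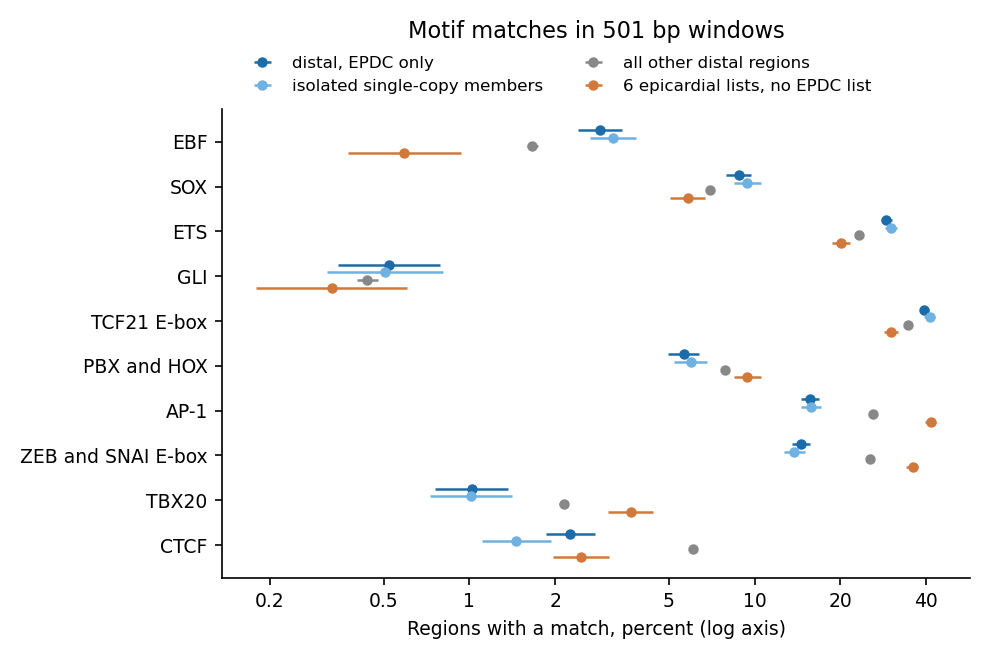
Percent of distal regions with a motif match in the summit window (log axis), for the 5 motifs with the largest and the 5 with the smallest ratio of EPDC-only to other distal regions; points are shares and lines 95% Wilson intervals. EPDC-only regions lie to the right of all other distal regions for EBF (2.87% against 1.66%) and to the left for AP-1 (15.7% against 26.0%).

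Most of these shares were close in the isolated single-copy regions. EBF was matched in 3.19% of them, 1.84 times the share in other single-copy distal regions, ETS in 30.1% and AP-1 in 15.8%. CTCF was lower, at 1.46% and a ratio of 0.256, against 0.373 over all EPDC-only regions. On few matched regions, 28 and 10, the ratio of the WT1 and EGR pattern turned. It was 1.06 over all EPDC-only regions, with overlapping intervals, and 0.461 over the isolated ones. Positions differed as well. Of the EBF matches in EPDC-only regions 42.1% lay within 50 bp of the summit, against 30.3% in regions called in all 9 libraries, and the shares were 30.3% against 23.0% for ETS and 34.8% against 28.4% for the TCF21 E-box. AP-1 matches lay there in 28.9% against 44.1%. For TBX20 the share was 2.33%, only 1 of 43 matches, against 16.2% (79 of 488).

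**Figure D4:**
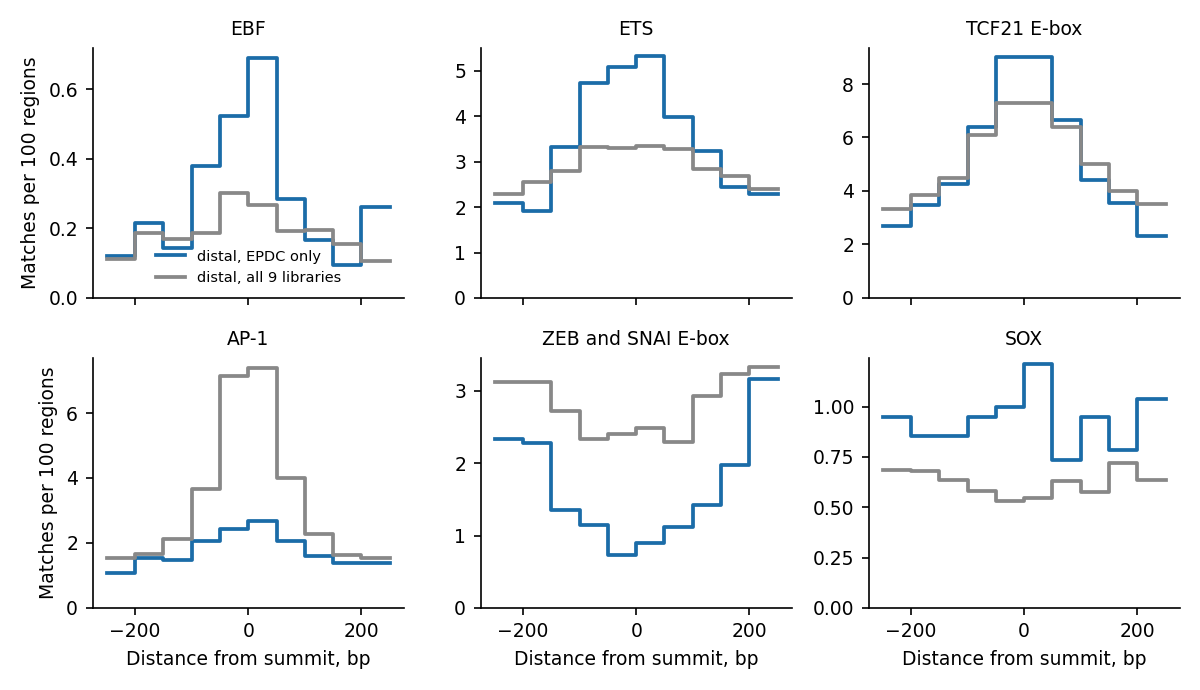
Motif matches per 100 regions in 50 bp bins by distance from the summit (bp), for EPDC-only regions and for distal regions called in all 9 libraries. EBF, ETS and TCF21 E-box matches rise toward the summit in EPDC-only regions, and ZEB and SNAI E-box matches fall there (9.99% of them within 50 bp).

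Set beside regions only in one stage of the epicardium, the motif shares of the EPDC-only regions were not closer to the same stage for every motif. The NFI site (TTGGCA) was matched in 27.3% of EPDC-only regions, 26.1% of regions only in E11.5 epicardium and 46.6% of those only in E17.5 epicardium. For KLF the shares were 8.86%, 10.6% and 21.5%, and for AP-1 15.7%, 23.6% and 38.2%. For homeodomain factors the order turned, with 9.05%, 15.8% and 9.15%. TEAD, the effector of the Hippo pathway, was lowest in EPDC-only regions, at 10.4% against 17.6% and 12.4%.

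EPDC-only regions lay farther from genes than other distal regions. Of the 4211, 49.9% were intergenic, 46.3% intronic and 3.82% exonic, against 42.6% intergenic among other distal regions. The median distance to the nearest protein-coding start was 36.3 kb against 26.2 kb, and 38.4 kb for regions only in E11.5 epicardium and 18.6 kb for those only in E17.5 epicardium. More than 100 kb away were 27.2%, against 20.3%. Of the EPDC-only regions 14.6% lay within 10 kb of another, against 42.3% of the 26671 regions called in all 9 libraries, a larger set. For regions only in E17.5 epicardium it was 12.2% and for those only in E11.5 epicardium 10.1%. Regions called by all epicardial and no EPDC lists had 7.30%. The share was 6.86% for isolated single-copy regions, from which the bare stretches had been taken out.

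Nearest genes were many and shared few regions. The 4211 regions had 2724 nearest protein-coding genes, of which 1897 had 1 region. The gene with the most was Atg7, with 31 of the 65 distal regions nearest to it. Hrh1 had 23 of 39, Ezh2 15 of 16, Flrt2 12 of 114, Trak1 11 of 26 and Tcp10c 10 of 18. Pdia4 had 9 of 14, Gadd45b 9 of 9, Zfp608 9 of 145, Efna5 9 of 146, Cited2 8 of 79 and Ctdp1 7 of 16. In all, 8 genes had 7 regions, and Ctdp1 was taken for the highest mean percentile of its regions. Of these 12, 4 had isolated single-copy regions: Efna5, an ephrin ligand gene, had 9, Zfp608 8, Cited2, a transcriptional coregulator gene, 7 and Flrt2, an adhesion gene needed in the epicardium, 6. Tns1, which links integrins to actin, had 7 isolated ones among 92 nearest distal regions, and Frmd4a 7 among 63. The phosphodiesterase genes Pde7b and Pde4d had 7 among 53 and 7 among 116. Over all genes 3.32% of distal regions were EPDC-only.

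The lists of cell type markers were compared by the share of their distal regions that were EPDC-only, beside 3.32% over all genes. Mural cell genes had 13 of 233 regions (5.58%), all isolated and single-copy, and fibroblast and mesenchyme genes 21 of 559 (3.76%), of which 17 were isolated. Endothelial genes had 9 of 248 (3.63%), valve mesenchyme genes 8 of 228 (3.51%), epicardial genes 7 of 309 (2.27%), and cardiomyocyte genes 2 of 155 (1.29%). Neural crest and glia genes had 2 of 45 (4.44%) and blood and macrophage genes 2 of 133 (1.5%). Genes of growth factor signals in the transition had 25 of 954 (2.62%), and genes of factors whose motifs were searched 82 of 2294 (3.57%). Most of these shares were near the background.

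For a listed gene, the strongest region is the isolated single-copy one with the highest lowest-of-3 percentile, with its 3 percentiles in the library order used above. Among mesenchymal genes, Cdh11, a cadherin of mesenchyme, had 4 EPDC-only regions, the strongest at chr8:102845269-102845980 with percentiles of 78.5, 77.6 and 79.0. Col3a1, fibrillar collagen III, had 2 regions, the stronger at 46.0, 54.1 and 63.7, and Zeb2, a repressor of epithelial genes, had 3, the strongest at 25.6, 49.6 and 50.4. Tcf21 had 3, the strongest at 5.46, 28.8 and 23.3. All 3 regions of Fbln1, an extracellular matrix gene, lay in a bare stretch.

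Among mural genes, Foxs1, a forkhead gene of pericytes, had a region 7.16 kb away with percentiles of 78.3, 82.9 and 84.2. The strongest of 3 regions near Ebf1 lay in its intron at 47.3, 51 and 50.2, that of Ebf2 reached 42.9, 41.2 and 54.6, and that of the potassium channel regulator gene Abcc9 35.6, 57.0 and 57.2. These 3 were of middle rank in all 3 libraries.

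Among signals and factors, Ccn2, a matricellular target of Hippo and TGF-beta signalling, had 3 regions, the strongest at 63.4, 69.6 and 78.1. Ets1 and Sox5 had the most of the factor genes, with 6 each, of 67 and 112 distal regions nearest to them. Sox11 and Nfib followed with 5 each, of 70 and 111, beside a share of 3.32% over all genes. Of the Sox5 regions 3 were isolated and single-copy. The strongest Sox5 region held an EBF match and stood at 40.5, 67.8 and 68.9. Bmper, a BMP modulator gene, had 5, the strongest at 40.5, 49.6 and 65.0. Epicardial genes had regions too: Tbx18 had 2, the stronger 166 kb away at 33.7, 66.3 and 68.2, and Aldh1a1, a retinoic acid synthesis gene, had 2, the stronger at 21.0, 36.0 and 23.8.

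Other factor genes had regions of varied rank. Gata6, a zinc finger factor gene of heart and epicardium, had 3, the strongest at 55.7, 74.5 and 81.2, and Maf had 2, the stronger at 61.3, 71 and 76.6. Tbx3, a T-box gene of valve and conduction tissue, had 3, the strongest 37.0 kb from its start, in an exon within the noncoding genes Tbx3os1 and Gm16063, at 35.6, 66.9 and 65.7. Ranks were lower for Klf6 (14, 30.5 and 43.2), Nfib (14, 25 and 36.2) and Tcf7l2 (25.6, 27.9 and 39.9). E12.5 sample 1 gave the lowest percentile for all 6 of these genes.

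Among the genes with most isolated single-copy regions, the strongest region of Tns1 lay 79.3 kb from its start, in an intron of the noncoding gene 6030407O03Rik, at 90.2, 88.2 and 88.4. That of Efna5 stood at 54.8, 69.9 and 74.2, that of Pde4d at 62.7, 71.5 and 68.4 and that of Flrt2, 1292 kb from its start, at 58.3, 81.9 and 79.3. Btbd3 had its strongest at 59.1, 78.4 and 81.7 and Zfhx3, a homeodomain and zinc finger gene, at 57.5, 72.1 and 76.2.

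Whether the promoters of the nearest genes also ranked higher in EPDCs was asked with promoter windows that the choice of regions did not use, though the libraries are the same. A promoter was called where every EPDC library lay above, or below, every epicardial library. Of 2364 nearest genes with a promoter peak, 285 (12.1%) were higher and 153 (6.47%) lower, beside 7.46% and 9.06% of all 15452 promoters. Part of the gain sat in promoters listed at 0 in all 6 epicardial lists. Without those, 180 of 2243 (8.02%) were higher, beside 5.12% of all such promoters. For genes nearest to isolated single-copy regions, 170 of 2086 (8.15%) were higher and 135 (6.47%) lower. The share higher was close to the 7.46% of all promoters. Without promoters listed at 0 in all 6 epicardial lists, 163 of 2072 (7.87%) were higher, beside the 5.12%.

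For a single promoter the difference in mean percentile was set against all 84 ways of assigning the libraries, as an exact two-sided permutation test that cannot give a p below 0.0119. Nfatc1, a calcineurin-regulated factor gene from the list of endothelial markers, had promoter percentiles of 86.8, 93.1 and 92.7 in EPDCs. They were 80.6 to 81.3 in E11.5 epicardium and 73.7 to 76.0 in E17.5 epicardium, a difference in means of 13.0 percentile points (exact p = 0.0119). The EPDC promoter values did not overlap the epicardial ones. Nfatc1 had 2 EPDC-only regions, the stronger at 14.0, 43.7 and 63.8. Tns1 had 95.3, 95.6 and 94.8 against means of 89.3 ± 0.787 (SD, n = 3) in E11.5 and 87.2 ± 2.71 (SD, n = 3) in E17.5 epicardium, a difference of 7.0 (exact p = 0.0119). With peaks ranked by fold enrichment the Tns1 difference turned to -1.96 and the call was lost. Mef2c, a muscle and endothelial factor gene, had 77.1, 79.4 and 82.0 against 71.4 to 76.3, a difference of 5.21 (exact p = 0.0119). The Mef2c call was lost when peaks were ranked by fold enrichment (a difference of 7.43) and under limma across all promoters. Frmd4a had a difference of 3.63 (exact p = 0.0119), and its call was lost under the same settings, with a difference of 1.04 by fold enrichment. Tns1 and Frmd4a were the only genes called, in either direction, among the 12 with most isolated single-copy regions. Of all 15452 promoters, 7.46% were called higher and 9.06% lower. These p-values are the smallest this design can give, and they were not adjusted over promoters.

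Other genes with EPDC-only regions had lower promoters. The Aldh1a1 promoter stood at 68.4, 64.2 and 64.9 in EPDCs and 78.8 to 90.4 in epicardium, a difference of -18.8 (exact p = 0.0119). Zeb2 had a difference of -13.8 and Fbln1 of -9.75 (exact p = 0.0119 each). The Foxs1 promoter was listed at 0 in all 3 EPDC libraries and at 53.9 to 69.9 in epicardium. Cdh11, Ebf1, Tbx18, Tcf21 and Ccn2 overlapped between populations, with differences of 1.14, -0.267, 1.43, -0.214 and 0.384. Gadd45b and Ctdp1, with 9 and 7 regions, were listed at 0 in all epicardial lists and stood at 94.6 to 96.3 and 96.9 to 98.5 in EPDCs.

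**Figure D5:**
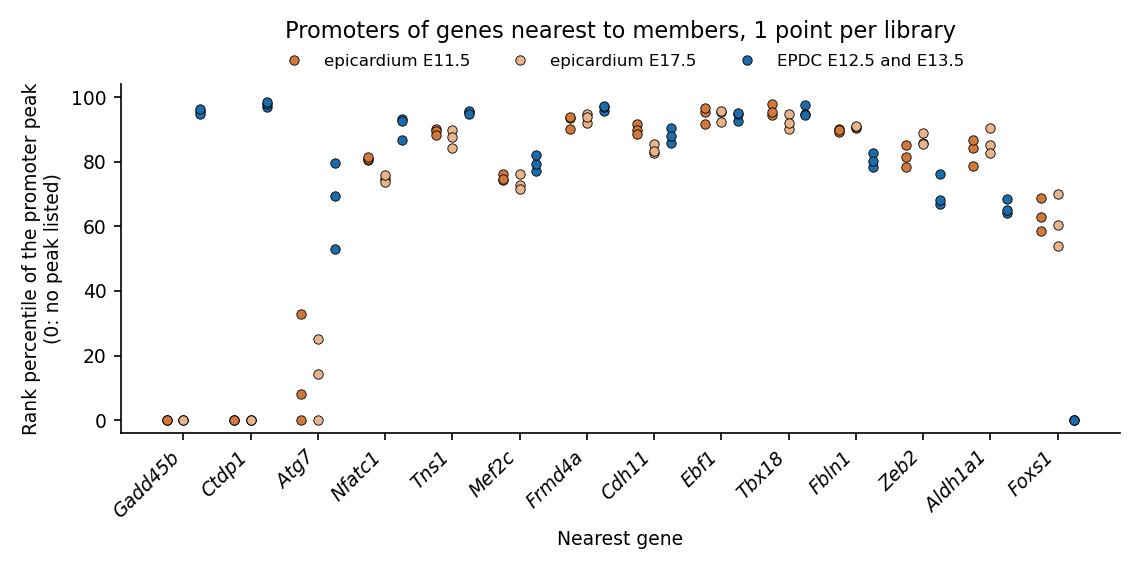
Rank percentile of the promoter peak for 14 genes nearest to EPDC-only regions, 1 point per library for E11.5 epicardium, E17.5 epicardium and EPDC; 0 means that no peak was listed. Gadd45b and Ctdp1 are at 0 in all 6 epicardial libraries, Nfatc1 and Tns1 are higher in all 3 EPDC libraries by −log10 p (Tns1 is not by fold enrichment, at -1.96), and Aldh1a1 is lower.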

How the data were processed

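The authors aligned paired reads of 40 bases to mm10 with nf-core atacseq 2.0, removed duplicate, multimapped, mitochondrial and blacklisted reads, and called peaks with MACS2 2.2.9.1 on fragments at a q-value of 0.01. The EPDC lists hold mitochondrial peaks all the same, and whether all lists were filtered alike was not tested. The deposited lists give, for each peak, a −log10 p-value, a −log10 q-value and a fold enrichment ratio over local background. No value was normalized between libraries. Technical runs of 1 sample share a list, so 10 samples gave 9 libraries.

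From these, intervals were merged, distances were taken to GENCODE M21 start sites, and windows of 250 bp to either side of a summit were read from GRCm38.p6 for 32-mer copies (every 10 bp), mitochondrial matches (BLAST+ 2.17.0, e-value 1e-10) and exact motif patterns. Depth was solved from fold enrichment and −log10 p (2.07 to 10.9 fragments per position). The regions, lists and comparisons were chosen with earlier results of these data known, and bare stretches were defined after the data were seen. Named were the 12 regions of highest lowest-of-3 percentile, the 12 genes nearest to most regions (ties by mean percentile), listed genes nearest to 2 or more, and the 5 motifs at each end by ratio. The 12 isolated single-copy regions and genes with most of them were added after seeing the data. limma 3.58.1 (R 4.3.3) was an alternative, tested on simulated data. Printed windows leave out chromosome 18. The labels call the libraries biological replicates. Python 3.11.15, numpy 2.4.6, pandas 2.3.3, scipy 1.17.1, numba 0.67.0 and pysam 0.24.0 were used.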

Additional observations from a re-analysis of the deposited data

Results flagged for a closer look

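The regions of the report were chosen on the autosomes, and peaks elsewhere were only counted. On chromosome Y, 24 of 56 distal union regions (42.9%) were called by all 3 EPDC lists and no epicardial list, and 0 by all 6 epicardial and no EPDC lists. On chromosome X the counts were 84 of 2813 (2.99%) and 61. Unplaced scaffolds held 203 peaks over the 3 EPDC lists and 0 in the epicardial lists. Whether the pools differed in the sex of the embryos was not tested. Groups here hold at most 3 samples, so none was examined for outlying samples.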

How the results depend on the processing

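The number of EPDC-only regions ranged from 3309 (more than 5 kb from a start site) to 5314 (equal numbers of top peaks) over the planned settings that keep all libraries. Requiring an overlap of 50% changed nothing, because each interval lies whole inside its merged region. Leaving out 1 library gave 4322 to 9247 regions, the last without EPDC E12.5 replicate 1, which decides the number. For promoters of nearest genes, leaving out 1 library gave 294 to 439 higher promoters, again highest without EPDC E12.5 replicate 1, beside 7.71% to 12.3% of all promoters. At an adjusted p of 0.05, limma called 185 of 2364 higher, beside 4.49% of all promoters, and 143 with the replicate number as a block, beside 3.63%. Same-numbered libraries did not deviate together in every pair (correlations from -0.0942 to 0.305), so the numbers were not taken as pairs. Under settings added after the data were seen, 170 of 2086 (8.15%) were higher for isolated single-copy regions, beside 7.46% of all promoters. Among promoters with an epicardial peak 180 of 2243 (8.02%) were higher, beside 5.12%. Of 780 values of single promoters under alternatives, 738 kept their call, 14 lost it, 27 gained one and 1 reversed, Tns1 by fold enrichment (-1.96). The lost calls were those of Hrh1, Pdia4, Mef2c, Frmd4a and Nfatc1, the last only under the block. From 14 to 18 motifs had intervals apart, and none of the 9 named motifs with intervals apart changed direction. Of 50 motif ratios under alternatives, 13 moved by more than counting error, 8 of them away from 1 in windows reaching 100 bp from the summit (ZEB and SNAI to a log2 ratio of -1.46, from -0.80). GLI, whose intervals overlapped, fell to a log2 ratio of -0.40 in regions above the median percentile. Regions reachable in all epicardial libraries numbered 4073 at the median background of called peaks. Depth limits weak peaks most in epicardium E17.5 replicate 1.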
